A study of Danio rerio with 6 samples.

Results

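The gamma crystallins of the zebrafish lens were followed in whole larvae. All genes whose zebrafish symbol, looked up by Ensembl gene identifier, begins with cryg were taken. This gave 41 of the 32520 genes listed, of which 35 had a TPM above 0 in at least 3 of the 6 libraries and were kept. The kept genes comprised all 21 copies of crygm2d, 8 of 11 other crygm genes, all 3 genes named crygmx, crygmxl1 and crygmxl2, both crygn genes and 1 of 4 crygs genes. TPM, the unit of the deposited levels, counts reads per unit of transcript length, scaled to 1 common total for all libraries.

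Each library was made from polyadenylated RNA of a pool of 30 untreated larvae at 5 days post fertilization, grown in a light-dark cycle. The groups were 3 libraries labelled (stim2a;stim2b)−/−, mutant at both genes of the endoplasmic reticulum calcium sensor STIM2, and 3 libraries labelled (stim2a;stim2b)+/+, wild type at both. Replicates carry the numbers 1 to 3 in each group, and the labels do not say whether the pools came from separate clutches, so the p-values rest on differences among pools that may be technical. RNA of both targeted genes runs counter to the labels, and so do the names of the deposited files, which carry the letters wt for the libraries labelled −/−. The level of stim2a was 1.31, 1.41 and 1.20 TPM in the libraries labelled −/−, against 0.329, 0.252 and 0.403 TPM in those labelled +/+, and stim2b was at 1.52, 1.34 and 1.85 TPM under −/−, against 0.542, 0.475 and 0.722 TPM under +/+ (exact two-sided permutation p = 0.1 for each, the smallest that 3 against 3 can give). For this reason the groups are named by their labels throughout, and no direction below is a statement about loss of STIM2.

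Crystallins are the structural proteins that fill lens fibre cells and give the lens its refractive power. Beta and gamma crystallins share a fold of paired Greek key motifs; beta crystallins form dimers and larger complexes, whereas gamma crystallins are monomers. Fish carry an expanded class, the gamma M crystallins, named for their high methionine content, which pack densely in the hard spherical lens of aquatic eyes. Gamma S (crygs) and gamma N (crygn) crystallins are also present in land vertebrates, and gamma N combines features of the beta and gamma classes.

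The samples were whole larvae, so lens RNA was a small fraction and a difference in lens size cannot be told apart from a difference in RNA per lens cell. TPM carry no read depth; the ratio of coverage to FPKM, which is proportional to the aligned bases, lay between 4.64 and 5.93 in the 6 libraries. On a scale of log2(TPM + 0.5), limma gave 8046 of 20330 tested genes (39.6%) an adjusted p below 0.05, and their median log2 fold change, −/− minus +/+ over every tested gene, was 0.22 with TPM as deposited and 0.02 after each library was rescaled by its median gene ratio. Counts of called crystallins are therefore given on both scales.

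Gamma crystallins as a class were less abundant in the libraries labelled −/− on average, and almost all of their RNA came from crygm2d. The 41 genes together held 0.544%, 0.702% and 0.972% of all TPM in the libraries labelled −/−, against 1.096%, 1.13% and 0.813% in those labelled +/+. The highest library labelled −/− thus lay above the lowest library labelled +/+, and in both cases this was replicate 3. Copies of crygm2d made up 90.8% of the gamma crystallin mean in the libraries labelled −/− and 93.2% in those labelled +/+. The crygn genes made up 5.81% under −/− and 4.21% under +/+, the crygmx group 3.14% under −/− and 2.31% under +/+, and the other crygm genes 0.254% under −/− and 0.251% under +/+.

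Summed over the 21 copies, crygm2d amounted to 5050, 6303 and 8790 TPM in the libraries labelled −/−, against 10206, 10522 and 7627 TPM in those labelled +/+. The means were 6714 ± 1904 TPM under −/− and 9451 ± 1588 TPM under +/+ (SD, n = 3 each), with their ratio at 0.710, and the groups overlapped. Without replicate 3 of both groups the ratio was 0.548, a fall fixed by leaving out the highest library labelled −/− and the lowest labelled +/+. For the other crygm genes the sums were 12.9, 18.9 and 24.6 TPM in the libraries labelled −/−, against 27.2, 26.5 and 22.6 TPM in those labelled +/+, and the ratio of means was 0.739. The crygmx group, at 232 ± 93.9 TPM under −/− and 234 ± 65.3 TPM under +/+, and the crygn pair, at 429 ± 171 TPM under −/− and 427 ± 90.1 TPM under +/+ (SD, n = 3 each), had nearly equal group means with wide spreads. These sums are descriptions, without a test.

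**Figure D1:**
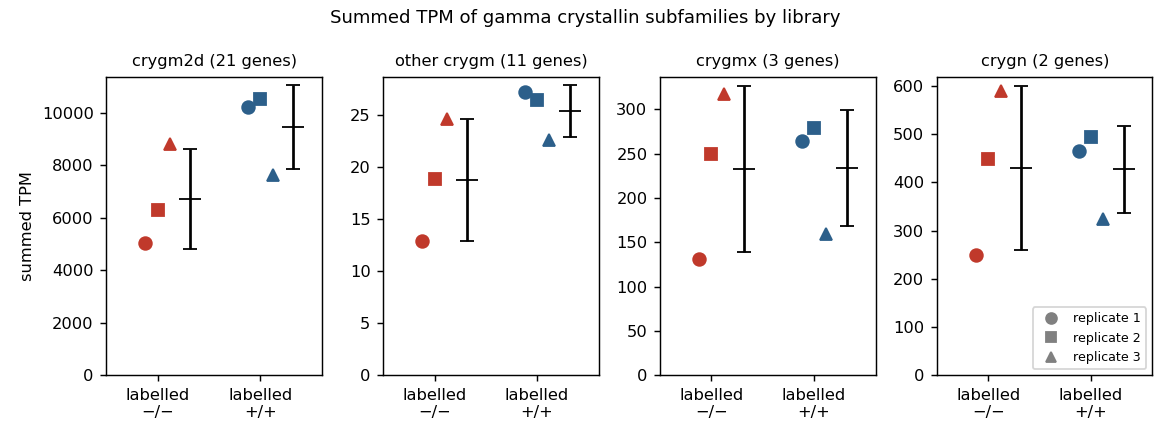
Summed TPM of 4 gamma crystallin subfamilies in each library, with libraries labelled −/− at the left and those labelled +/+ at the right of each panel; symbols give the replicate number and the bars the mean ± SD of 3 libraries. For crygm2d, 2 of the libraries labelled −/− lie below every library labelled +/+, while replicate 3 is the highest of its group under −/− (8790 TPM) and the lowest under +/+ (7627 TPM).

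The limma test called 8 of the 31 gamma crystallins that reached at least 1 TPM in at least 3 libraries as lower in the libraries labelled −/−, and 1 as higher. Over all tested genes 8.76% were called lower and 30.8% higher. The 8 include crygm2b, which passed this filter only through the libraries labelled +/+, so its call is no support. The same holds for crygm2c wherever it is counted as lower below. The median log2 fold change of the 31 was −0.53, and 28 of them had a value below 0. After rescaling, 20 were called lower, against 21.6% of all genes, and none higher, against 22.8%, with a median of −0.73; 30 of the 31 then had a value below 0. With the replicate number as a block, 12 were called lower (13.3% of all genes) and 1 higher (45.6%). With FPKM, which 29 of the members could be tested in, 15 were called lower (14.3% of all genes) and 1 higher (30.3%), and with quantile scaling 16 lower (20.8%) and 1 higher (20.5%). With the block and rescaling together 18 were called lower (28.0%) and none higher (29.7%), and with no filter on level 5 of 35 lower (7.89%) and none higher (21.2%). These 5 include crygm1, which was at 0 in all libraries labelled −/− and kept only through the libraries labelled +/+, so its call is no support. Without replicate 1 labelled −/−, without replicate 1 labelled +/+ or without replicate 2 labelled +/+, no member was called lower, where 5.94%, 1.79% and 1.48% of all genes were. Leaving out replicate 2 labelled −/− gave 5 lower calls, leaving out replicate 3 labelled −/− gave 19, and leaving out replicate 3 labelled +/+ gave 15, against 7.2%, 5.73% and 8.12% of all genes.

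The crygm2d copies lie in a tandem array on chromosome 9, from 22091161 to 22339582 in the deposited coordinates, all on the minus strand. They are flanked there by most of the other crygm genes, so that 34 of the 41 genes fall between 21993092 and 22366295. The mean levels of single copies lay between 86.2 and 866 TPM in the libraries labelled −/− and between 129 and 1374 TPM in those labelled +/+. The sources used here do not say how reads matching several near-identical copies were handled, so the level of a single copy is uncertain, more so than the sum.

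The most abundant copy was crygm2d8, at 692, 807 and 1098 TPM in the libraries labelled −/−, against 1478, 1511 and 1135 TPM in those labelled +/+. All values under −/− lay below all values under +/+, and the log2 fold change was −0.68 ± 0.18 (SE, limma adjusted p = 0.0246). The next, crygm2d13, had 425, 579 and 832 TPM in the libraries labelled −/−, against 1013, 1027 and 694 TPM in those labelled +/+. Here replicate 3 labelled −/− exceeded replicate 3 labelled +/+, and the log2 fold change of −0.61 ± 0.25 missed the threshold (limma adjusted p = 0.0802), but passed after rescaling (−0.83, adjusted p = 0.0321). The third, crygm2d10, had 385, 472 and 660 TPM in the libraries labelled −/−, against 616, 640 and 459 TPM in those labelled +/+. Its groups overlapped widely, and its log2 fold change was −0.20 ± 0.20 (limma adjusted p = 0.445) and −0.42 after rescaling (adjusted p = 0.139).

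Of the 21 copies, 7 were called lower by limma and none higher, where 8.76% and 30.8% of all tested genes were. The lowest log2 fold change of all tested gamma crystallins belonged to crygm2d16, with 174, 228 and 307 TPM in the libraries labelled −/−, against 436, 460 and 319 TPM in those labelled +/+ (−0.80 ± 0.21, SE, adjusted p = 0.0258). For crygm2d17 the values were 306, 353 and 480 TPM under −/−, against 662, 663 and 521 TPM under +/+ (adjusted p = 0.0199), and for crygm2d7 they were 127, 200 and 224 TPM under −/−, against 268, 336 and 257 TPM under +/+ (adjusted p = 0.0356). As in crygm2d8 and crygm2d16, the groups of these copies did not overlap. This was so for 4 of the 21 copies of crygm2d and 6 of the 31 tested members, lower in each case, where 16.3% of all tested genes had non-overlapping groups with −/− lower. The 6 include crygm2b, which passed the filter of the test only through the libraries labelled +/+.

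The remaining called copies, crygm2d5, crygm2d11 and crygm2d14, overlapped between the groups through replicate 3 alone. For crygm2d11 the values were 208, 281 and 383 TPM in the libraries labelled −/−, against 510, 542 and 381 TPM in those labelled +/+ (fold change on the log2 scale −0.74 ± 0.22, SE, limma adjusted p = 0.0330). For crygm2d14 they were 203, 257 and 345 TPM under −/−, against 491, 507 and 329 TPM under +/+ (adjusted p = 0.0353), and for crygm2d5 they were 183, 214 and 306 TPM under −/−, against 399, 386 and 298 TPM under +/+ (adjusted p = 0.0332). The span listed for crygm2d14 (22146301 to 22158784) contains that of crygm2d16 (22157282 to 22158325) on the same strand, so reads of these copies may not be separable. After rescaling, 15 of the 21 copies were called lower, against 21.6% of all tested genes. With the replicate block, crygm2d15 (adjusted p = 0.0413) and crygm2d18 (0.0474) joined the 7, where 13.3% of all tested genes were called lower. The fold changes are the same in both fits, and the SE of crygm2d18 was 0.240 with the block and 0.235 without it.

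**Figure D2:**
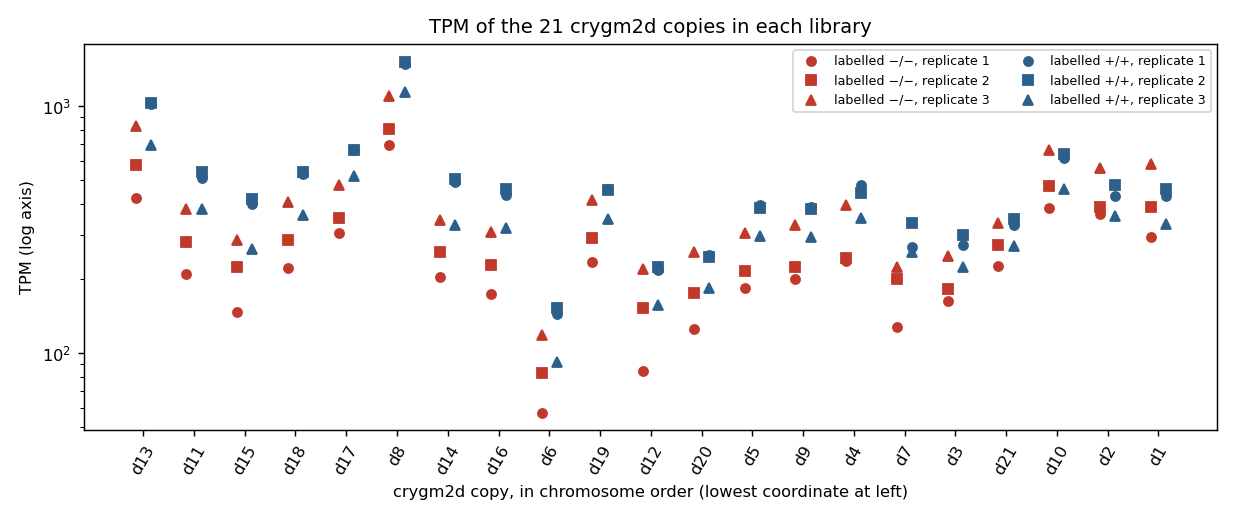
TPM of each of the 21 crygm2d copies (log axis) in chromosome order, with the 3 libraries labelled −/− left of the 3 labelled +/+ at each copy. Replicate 3 (triangles) is the highest library labelled −/− and the lowest labelled +/+ at all 21 copies, and the gap between the groups closes toward crygm2d2 and crygm2d1 at the right.

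The difference between the groups changed along the array, though not in even steps. The 8 copies at the lower coordinates, crygm2d13 to crygm2d16, had log2 fold changes between −0.80 and −0.61. The copies between these and the last 4 lay between −0.67 (crygm2d7) and −0.33 (crygm2d20), without a steady rise. The 4 copies of highest coordinate, crygm2d21, crygm2d10, crygm2d2 and crygm2d1, lay between −0.20 and 0.04. Across the 21 copies the fold change followed the chromosome order with a Spearman's rho of 0.775, which stayed between 0.695 and 0.848 when each library was left out in turn and was 0.866 without replicate 3 of both groups. The rho of log2 mean TPM with the order was −0.161, and that of the fold change with log2 mean TPM −0.0221. All these values were computed across copies that share the same libraries, a similar sequence and possibly reads, and they describe the pattern without testing it. All 21 copies stand in the same order in the RefSeq annotation of assembly GRCz12tu.

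**Figure D3:**
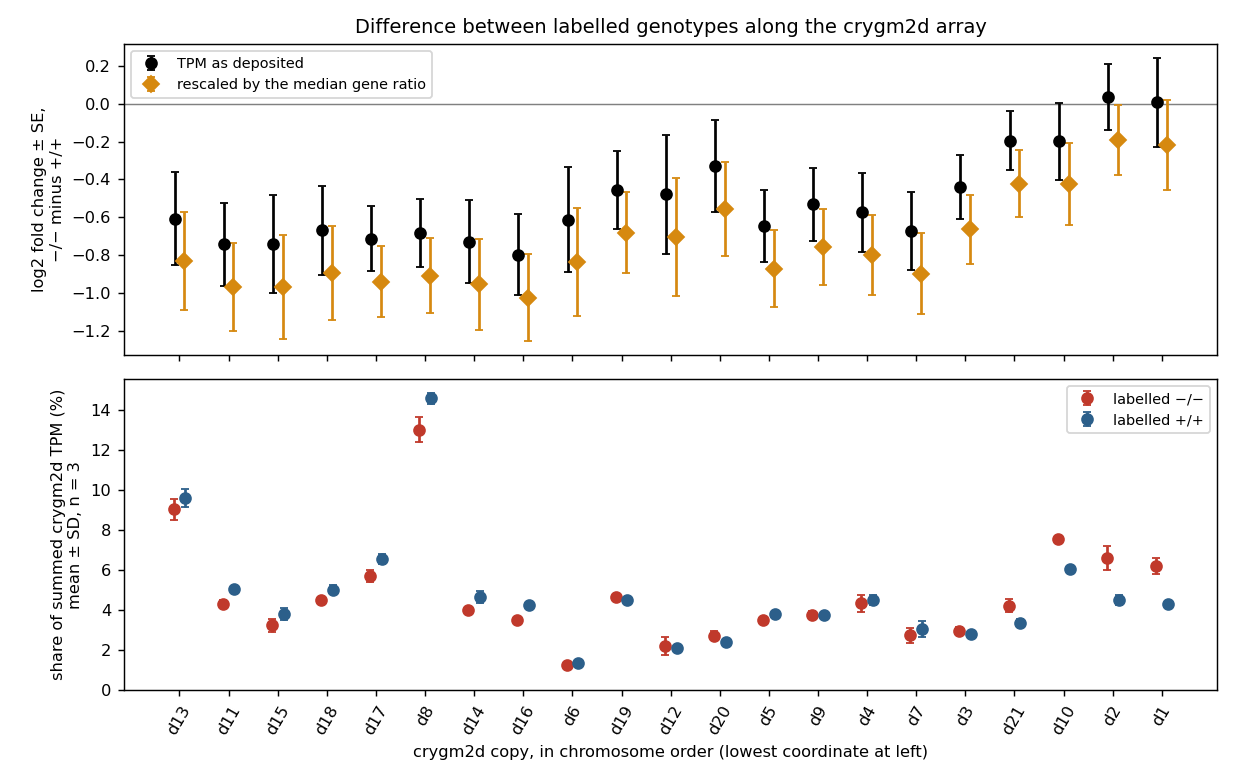
Top, log2 fold change of each crygm2d copy (−/− minus +/+, ± SE from limma) with deposited TPM and with rescaled TPM. Bottom, the share of each copy in the summed crygm2d TPM as mean ± SD of 3 libraries. Deposited fold changes lie near −0.7 at the left of the array and near 0 at crygm2d2 and crygm2d1. Rescaled ones lie between −1.02 (crygm2d16) and −0.83 (crygm2d13) at the left and near −0.2 at crygm2d2 and crygm2d1. The shares of crygm2d2 and crygm2d1 are larger in the libraries labelled −/−.

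Shares within the array do not change when a library is rescaled by 1 factor, and for the end of the array they did not overlap between the groups. Quantile scaling can change them, and shares were not computed under it. The 4 copies of highest coordinate together held 25.1%, 24.2% and 24.3% of crygm2d TPM in the libraries labelled −/−, against 17.7%, 18.3% and 18.6% in those labelled +/+. Means were 24.6 ± 0.514% under −/− and 18.2 ± 0.468% under +/+ (SD, n = 3 each), a difference of 6.34 percentage points that stayed between 6.04 and 6.54 when each library was left out. Replicate 3 did not stand apart in this measure under either label. The 8 copies of lowest coordinate held 47.0%, 47.8% and 47.1% in the libraries labelled −/−, against 54.1%, 53.9% and 52.5% in those labelled +/+. These sets of copies were formed after their values were seen, so the differences are given without a test. Shares of all copies add up to a whole, so a larger share of some goes with a smaller share of others.

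Copy by copy, the largest gains in share were those of crygm2d2, crygm2d1 and crygm2d10, named after their values were seen. The share of crygm2d2 was 7.26%, 6.17% and 6.37% in the libraries labelled −/−, against 4.24%, 4.55% and 4.70% in those labelled +/+. That of crygm2d1 was 5.83%, 6.21% and 6.59% under −/−, against 4.21%, 4.37% and 4.36% under +/+, and that of crygm2d10 was 7.63%, 7.48% and 7.51% under −/−, against 6.03%, 6.09% and 6.02% under +/+. The largest loss was at crygm2d8, with 13.7%, 12.8% and 12.5% in the libraries labelled −/−, against 14.5%, 14.4% and 14.9% in those labelled +/+. Groups did not overlap for 13 of the 21 shares, 6 of them higher and 7 lower under −/−. Shares within other gene families were not computed, so these counts stand without a background. Between the ends of the array, crygm2d13 stood at 1.45, 1.48 and 1.44 times the TPM of crygm2d1 in the libraries labelled −/−, against 2.36, 2.23 and 2.09 times in those labelled +/+.

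In absolute terms crygm2d1 and crygm2d2 had overlapping groups. The level of crygm2d1 was 294, 391 and 580 TPM in the libraries labelled −/−, against 430, 460 and 333 TPM in those labelled +/+ (fold change on the log2 scale 0.01 ± 0.23, SE, limma adjusted p = 0.981). For crygm2d2 it was 367, 389 and 560 TPM under −/−, against 433, 479 and 358 TPM under +/+ (0.04 ± 0.17, adjusted p = 0.877). Their values turned to −0.22 and −0.19 after rescaling, and to −0.39 (adjusted p = 0.0477) and −0.27 (0.0284) without replicate 3 of both groups. The fit without replicate 3 leaves out the highest library labelled −/− and the lowest labelled +/+ of both copies, so lower values follow from it. No direction can be given for either copy across these settings.

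Outside the crygm2d copies, the other crygm genes were expressed at low levels. The most abundant, crygm2f, next to crygm2d1, had 6.68, 9.88 and 11.9 TPM in the libraries labelled −/−, against 14.8, 14.5 and 12.3 TPM in those labelled +/+. Its groups did not overlap, and its log2 fold change of −0.56 ± 0.20 (SE) missed the threshold by limma (adjusted p = 0.0539) but passed with the block (0.0323) and after rescaling (0.0167). The span of crygm5 overlaps it on the same strand; crygm5 had 3.26, 4.75 and 6.60 TPM in the libraries labelled −/−, against 5.94, 5.79 and 4.13 TPM in those labelled +/+ (adjusted p = 0.650). At the other flank, crygm2e had 1.28, 1.97 and 2.12 TPM under −/−, against 2.49, 2.62 and 2.00 TPM under +/+ (adjusted p = 0.157, and 0.0485 after rescaling).

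One gene of this group, crygm2b, was called lower. It had 0.548, 1.06 and 0.724 TPM in the libraries labelled −/−, against 1.31, 1.45 and 1.40 TPM in those labelled +/+ (fold change on the log2 scale −0.58 ± 0.16, SE, limma adjusted p = 0.0284). All values under −/− were below all under +/+, and its replicate 3 did not depart from the others in the way that those of the crygm2d copies did. At this level it lies at the edge of the filter, which it passed only through the libraries labelled +/+, where it was higher. Its call and its non-overlap are therefore no support. Without replicate 3 of both groups its limma adjusted p was 0.0627. On the same side of the array, crygm2c had 0.341, 0.520 and 1.23 TPM in the libraries labelled −/−, against 1.54, 1.45 and 1.20 TPM in those labelled +/+ (limma adjusted p = 0.0506, 0.0361 with the block and 0.0203 after rescaling). It too passed the filter only through the libraries labelled +/+, so its calls are no support.

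The other 6 crygm genes were below the filter of the test. The fit with no filter on level took in crygm1, crygm3 and crygm7. For crygm3 the values were 0.583, 0.422 and 0.737 TPM under −/−, against 0.428, 0.519 and 0.377 TPM under +/+. For crygm7 they were 0.244, 0.262 and 0.248 TPM under −/−, against 0.406, 0.187 and 0.0510 TPM under +/+. All libraries labelled −/− listed crygm1 at 0, against 0.117, 0.0445 and 0.117 TPM under +/+, so that it was kept through 1 group only. That group alone brought it into the fit with no filter on level, where it was called lower. crygm2a and crygm4 were above 0 in 2 libraries each, and crygm6 was at 0 in all 6. The gene crygm2a was above 0 in replicate 3 of both labels only, at 0.798 TPM under −/− and 1.05 TPM under +/+.

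The crygmx group split. The gene crygmx lies beside crygmxl2 on chromosome 12, from 30838167 to 30841679 in the deposited coordinates, and was the only gamma crystallin called higher. It had 42.8, 84.4 and 121 TPM in the libraries labelled −/−, against 37.7, 43.5 and 33.3 TPM in those labelled +/+. Its ratio of means was 2.17 (log2 difference 0.99 ± 0.33, SE, limma adjusted p = 0.0443). Replicate 1 labelled −/− lay within the range of the libraries labelled +/+. The call was lost with no filter on level (adjusted p = 0.0669), after rescaling (0.77, adjusted p = 0.0768), without replicate 3 of both groups (0.57, adjusted p = 0.138) and without each library in turn other than replicate 1 labelled −/−, where the log2 fold change was 1.40 and the adjusted p 0.0116. Of all genes, 15.8%, 31.9% and 16.3% were called higher without replicate 1, 2 or 3 labelled −/−, and 2.59%, 1.76% and 39.5% without replicate 1, 2 or 3 labelled +/+.

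Its neighbour crygmxl2 was more abundant and was not called. The values were 87.1, 164 and 193 TPM in the libraries labelled −/−, against 223, 233 and 123 TPM in those labelled +/+ (fold change on the log2 scale −0.40 ± 0.33, SE, limma adjusted p = 0.339). Within the libraries labelled +/+, replicate 3 was at 0.541 times the mean of replicates 1 and 2, the lowest such value of any tested gamma crystallin. Without replicate 3 of both groups crygmxl2 was called lower (−0.93, limma adjusted p = 0.0250), as were 9.5% of all genes. That fit leaves out its highest library labelled −/− and its lowest labelled +/+, so the call adds no support. The third gene, crygmxl1, lies among the crygm genes on chromosome 9 and had 1.29, 1.27 and 2.80 TPM in the libraries labelled −/−, against 3.29, 2.43 and 2.28 TPM in those labelled +/+ (adjusted p = 0.133, and 0.0414 after rescaling).

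Gamma N crystallins showed no call on either scale. The abundant gene crygn2, on chromosome 24 from 41305391 to 41312459, had 246, 444 and 580 TPM in the libraries labelled −/−, against 456, 485 and 319 TPM in those labelled +/+. Its group means were 423 ± 168 TPM under −/− and 420 ± 88.6 TPM under +/+ (SD, n = 3 each), and the log2 fold change was −0.05 ± 0.30 (SE, limma adjusted p = 0.895) and −0.28 after rescaling (0.475). Its sign turned positive when replicate 1 under −/−, or either of replicates 1 and 2 under +/+, was left out. The weakly expressed crygn1, on chromosome 2, had 3.65, 5.52 and 9.03 TPM in the libraries labelled −/−, against 8.03, 7.50 and 5.09 TPM in those labelled +/+ (adjusted p = 0.551, and −0.72 with 0.0154 without replicate 3 of both groups). Replicate 3 was its highest library labelled −/− and its lowest labelled +/+, so the lower value without it follows from the choice of libraries. The span of crygn1 overlaps ly97.3 on the opposite strand. Over the 6 libraries crygn2 had a mean of 422 TPM, beside 415 TPM for crygm2d1 and 1120 TPM for crygm2d8.

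Gamma S crystallins were at or near 0. The only one kept, crygs1, had 0, 0 and 0.0679 TPM under −/−, against 0.131, 0 and 0.355 TPM under +/+. crygs3 was above 0 in 1 library, at 0.0409 TPM in replicate 1 labelled +/+, and crygs2 and crygs4 were listed at 0 in all 6. In the deposited coordinates the spans of crygs3 and crygs4 overlap crygm3 on the opposite strand, and a value of 0 in these files may be a failed estimate.

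Replicate 3 departed from replicates 1 and 2 in opposite directions under the labels. In 30 of the 31 tested members it was the highest library labelled −/−, and in 30 it was the lowest labelled +/+. Over all tested genes, 59.8% had replicate 3 as the highest library labelled −/−, 14.5% had it as the lowest labelled +/+, and 3.15% showed both, against 30 of 31 members. The exception was crygm2b. On the log2(TPM + 0.5) scale the median difference of replicate 3 from the mean of replicates 1 and 2 was 0.66 over the members under −/− and −0.40 under +/+. All tested genes had medians of 0.15 under −/− and 0.20 under +/+.

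The spread within a group was thus shared among the members. At crygm2d8, replicate 3 stood at 1.47 times the mean of replicates 1 and 2 in the libraries labelled −/− and at 0.759 times in those labelled +/+; at crygn2 it was at 1.68 times under −/− and 0.678 times under +/+, and at crygmx at 1.90 times under −/− and 0.821 times under +/+. Replicate 1 labelled −/− was the lowest of its group in 30 of 31 members, where 24.8% of all tested genes showed this. Without replicate 3 of both groups, 28 of the 31 members were called lower by limma, against 9.5% of all genes, and none higher, against 41.9%. The median log2 fold change was −0.90. All 21 crygm2d copies were among these 28. This fit compares 2 libraries with 2. It leaves out the highest library labelled −/− and the lowest labelled +/+ of 30 of the 31 members. Lower fold changes of those 30 therefore follow from the choice of libraries, and the count adds no support to the calls.

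**Figure D4:**
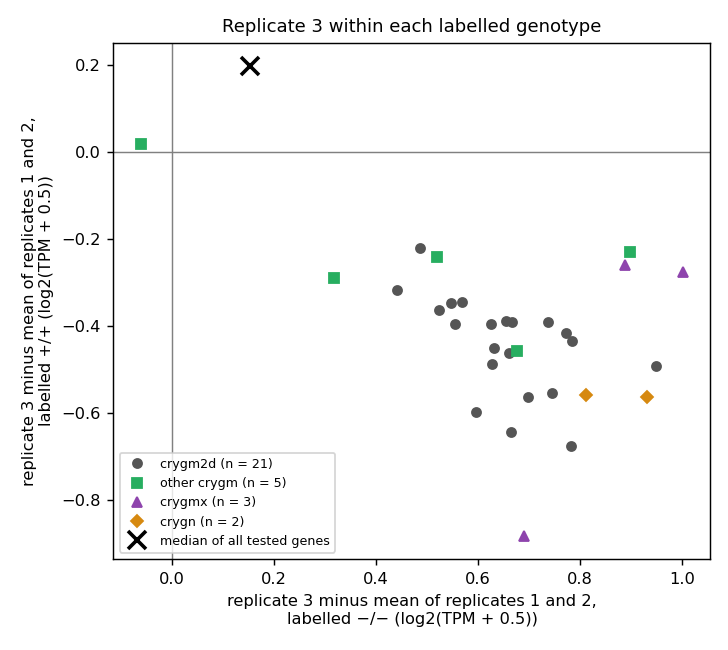
Difference of replicate 3 from the mean of replicates 1 and 2 on the log2(TPM + 0.5) scale, in the libraries labelled −/− (x axis) and in those labelled +/+ (y axis), for each of the 31 tested gamma crystallins by subfamily. All but crygm2b lie at the lower right, positive under −/− and negative under +/+, while the median of all tested genes (cross) lies at 0.15 under −/− and 0.20 under +/+.

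Among other lens genes, some were called higher and none lower with all 6 libraries, on the deposited and on the rescaled scale. A list of 36 other lens genes was used, of which 34 were matched and 27 tested: 9 rose and none fell by limma, with a median log2 fold change of 0.55. Matched genes below the filter were not tested. Of these, cryabb was at 0 in every library labelled −/−, against 0.730, 0.590 and 0.430 TPM under +/+. The untested cryba1a, crybb3 and gja3 went the other way, with every library labelled −/− above all those labelled +/+. Such separation was common: of all tested genes, 39.5% had it with −/− higher and 16.3% with −/− lower. No such share was computed for untested genes. Over all tested genes 30.8% were called higher and the median was 0.22, so the share of the list is near the background. The 9 were the alpha crystallin cryaa, the beta crystallins cryba1b, cryba1l1, crybb1 and crybb1l1, the beaded filament gene bfsp1, and the transcription factor genes mafa, mafba and prox1a, which are also expressed outside the lens. Rescaling left the counts at 9 and 0, where 22.8% of all genes were called higher and 21.6% lower. Without replicate 3 of both groups the counts were 7 and 2, where 41.9% of all genes were called higher and 9.5% lower. The 13 matched beta crystallins summed to 1017, 1795 and 2477 TPM in the libraries labelled −/−, against 1474, 1513 and 1158 TPM in those labelled +/+. In those sums too, replicate 3 was the highest under −/− and the lowest under +/+.

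The most abundant genes of that list were beta crystallins with unlike differences. For cryba2b the values were 377, 508 and 758 TPM in the libraries labelled −/−, against 774, 827 and 572 TPM in those labelled +/+ (fold change on the log2 scale −0.44 ± 0.25, SE, limma adjusted p = 0.171). For cryba2a they were 128, 211 and 293 TPM under −/−, against 265, 202 and 191 TPM under +/+ (adjusted p = 0.733). By contrast cryba1l1 had 152, 329 and 415 TPM in the libraries labelled −/−, all above the 108, 133 and 134 TPM of those labelled +/+ (1.14 ± 0.32, adjusted p = 0.0294), and cryba4 had 125, 244 and 303 TPM under −/−, against 144, 150 and 121 TPM under +/+ (adjusted p = 0.120). Each of the 9 lens calls was lost in at least 1 fit without a library, where the highest limma adjusted p was between 0.0502 and 0.127 (0.103 for cryba1l1). Without replicate 1 or 2 labelled +/+, 2.59% and 1.76% of all tested genes were called higher. The ratio of summed crygm2d to summed beta crystallin TPM was 4.97, 3.51 and 3.55 in the libraries labelled −/−, against 6.93, 6.95 and 6.58 in those labelled +/+, so these groups did not overlap although both sums did. This ratio was not planned beforehand and is given without a test. Its beta sum includes the 4 beta crystallins called higher, so it adds no support to those calls. No such ratio was formed for other sets of genes, so no background can be set beside it.

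**Figure D5:**
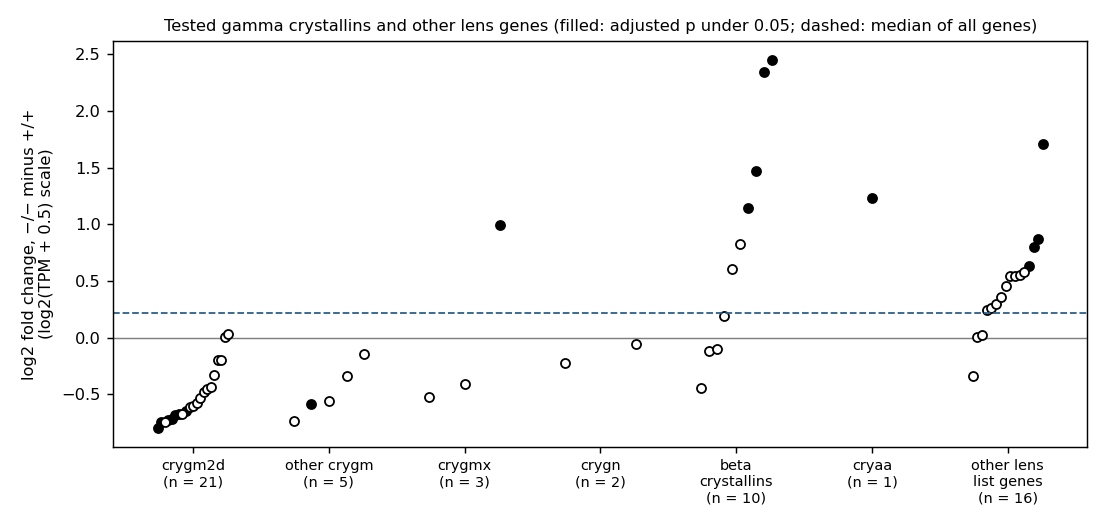
Log2 fold change (−/− minus +/+, log2(TPM + 0.5) scale) of the tested gamma crystallins by subfamily and of other lens genes; filled points passed an adjusted p under 0.05 by limma, and the dashed line is the median of all tested genes, 0.22. The crygm2d copies lie from −0.80 to 0.04. Of the others, cryaa and 4 of 10 beta crystallins are called higher, as were 30.8% of all tested genes. The calls of cryaa and of these 4 are each lost in at least 1 fit without a library. The beta crystallins cryba2b (−0.44), cryba2a (−0.12) and crybb1l3 (−0.10) lie below 0 and are not called.

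Genes of other cell types were called as well, in part at shares near those of all tested genes, of which 30.8% were called higher and 8.76% lower. Of 10 rod genes listed, 6 were matched and 5 tested, and of 9 muscle genes 8 were matched and tested. By limma, 5 of 5 tested rod genes, 6 of 12 cone genes, 5 of 12 genes of other retinal cells, 8 of 10 neuronal genes and 3 of 8 muscle genes were higher, and 1 cone gene was lower. After rescaling, when 22.8% of all genes were called higher and 21.6% lower, 3 rod genes were higher and none lower, 4 cone genes higher and 1 lower, 5 other retinal genes higher and 2 lower, 8 neuronal genes higher and 1 lower, and no muscle gene in either direction. Of the 33 calls in these lists, keratinocyte genes included, 25 were lost in at least 1 fit without a library. Calls fell over all tested genes too. Without replicate 1 or 2 labelled +/+, 2.59% and 1.76% of them were called higher, and 1.79% and 1.48% lower. The share of all calls lost in some fit was not computed. Rod genes summed to 453 to 554 TPM in the libraries labelled −/− and 308 to 368 TPM in those labelled +/+, and cone genes to 6068 to 6839 TPM under −/− and 4389 to 5138 TPM under +/+. Other retinal genes summed to 154 to 209 TPM under −/− and 121 to 144 TPM under +/+, and neuronal genes to 727 to 1035 TPM under −/− and 469 to 653 TPM under +/+. Muscle genes summed to 20121 to 21020 TPM under −/− and 18200 to 19388 TPM under +/+. Of 9 keratinocyte genes 5 were lower and none higher, with sums of 14450 to 15496 TPM under −/− and 17544 to 19689 TPM under +/+. After rescaling the keratinocyte counts were again 5 lower and none higher. With deposited TPM these sums did not overlap between the groups for any of the 6 lists. Of single tested genes, 39.5% had non-overlapping groups with −/− higher and 16.3% with −/− lower. No such share was computed for sums of other lists. After rescaling, muscle genes overlapped, at 17870 to 19675 under −/− and 19088 to 22010 under +/+, as did other retinal genes, at 143 to 181 under −/− and 138 to 149 under +/+. No matched gene of these lists was at 0 in all libraries. The part of these tissue differences in the crystallin levels was not tested.

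Within the gamma crystallin region of chromosome 9, 3 listed genes carry no cryg symbol. One of them, si:dkey-57a22.15 (22003942 to 22004833), named after its values were seen, was expressed at 22.8, 29.4 and 36.9 TPM in the libraries labelled −/−, against 56.3, 66.5 and 39.7 TPM in those labelled +/+. The groups did not overlap, and the log2 fold change was −0.85 ± 0.22 (SE, limma adjusted p = 0.0242), close to that of crygm2d16. The other genes, zgc:153846 and si:dkey-57a22.14, were under 1 TPM in each library.

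In the authors' deposited table, which does not state its direction, 15 of the 41 gamma crystallins had an adjusted p under 0.05. All 15 were among the 31 tested members and had a positive log2 fold change. Of the 32519 genes listed there 11.3% did so, a share that also counts genes at 0 such as crygm6. The signs in the authors' deposited table were opposite to those of limma for 29 of the 31; crygm2d1 and crygm2d2, near 0 by limma, were the others. The authors' deposited table gave crygm2d16 a value of 0.94 ± 0.20 on the log2 scale (SE, with an adjusted p = 7.36e-05), crygm2d13 0.75 ± 0.21 (adjusted p = 0.00585), crygm2d1 0.16 ± 0.20 (0.729) and crygmx −0.69 ± 0.34 (0.175). These values come from the same libraries as those of limma.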

How the data were processed

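Polyadenylated RNA from 6 pools of 30 whole larvae was sequenced as paired, stranded reads, per the labels' protocols. The submitters' processing notes list the tools STAR 2.5.3a, StringTie 1.3.3b and DESeq2 1.16.1. They also list danRer11 and hg38, with no role for either, and the sources used here give no other build for the coordinates. Per the file headers, each sample has a StringTie-style table in which the authors deposited coverage (a mean signal per base), FPKM (scaled for length and depth) and TPM (scaled to 1000000 per library). The authors' deposited table of the whole series holds a mean signal, log2 fold changes with standard errors, Wald scores and p-values.

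Groups and replicate numbers came from the labels. Rows of 1 gene were summed. Names came from a table of Ensembl identifiers; family symbols were resolved where the RefSeq table of assembly GRCz12tu held exactly 1 free match on the same chromosome, which named crygn1, crygn2, crygs1 and crygs2. Lists for lens, rod, cone, other retinal, neuronal, muscle and keratinocyte genes were matched by name. The members and lists were chosen with earlier results of these data known. So was the rule for giving values per library, which took the 3 most abundant members of each subfamily, small subfamilies whole, members called lower, the largest and smallest fold change, and the 4 most abundant other lens genes. Genes named beyond it are said to have been chosen after their values were seen, or stand beside a count they complete.

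The test was limma 3.58.1 in R 4.3.3 (lmFit, eBayes with trend) on log2(TPM + 0.5), run on 20330 genes that reached 1 TPM in 3 or more libraries, with Benjamini-Hochberg adjustment over all of them and calls under 0.05. On this scale the fold changes of weakly expressed genes come out too small. The remaining steps ran in Python 3.11.15 with SciPy 1.17.1 and pandas 2.3.3.

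Deviations from the group means of same-numbered replicates correlated across genes at 0.25, 0.19 and 0.48, above the 0.1 asked of each pair. The pairing rests on these correlations, as the labels do not speak of shared clutches, and for replicate 2 labelled −/− the correlation with replicate 1 labelled +/+ was larger (0.29). Results of the fit with the replicate block appear beside calls that it changes. In 30 of the 31 tested gamma crystallins replicate 3 was the highest library labelled −/− and the lowest labelled +/+, unlike the shared deviation that the block assumes. Alternatives were other pseudocounts, filters, scalings and FPKM, the block, and leaving out libraries.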

Additional observations from a re-analysis of the deposited data

How the results depend on the processing

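The count of gamma crystallins called lower was 8 by limma, against 8.76% of all tested genes. Among the 8 is crygm2b, which passed the filter only through the libraries labelled +/+. With no filter on level the count was 5 (7.89% of all genes), among them crygm1, which was kept through 1 group only. It was 15 with FPKM (14.3%), 16 with quantile scaling (20.8%) and 20 with rescaling (21.6%). With the replicate block and rescaling together it was 18 (28.0%), and without replicate 3 of both groups 28 (9.5%). It ranged from 0 to 19 when each library was left out in turn, against 1.48% to 8.12% of all genes. With the replicate block alone it was 12 (13.3%), and no call made without it was lost. The count called higher, 1 (30.8% of all genes), was 0 with no filter on level (21.2%). It was also 0 with rescaling (22.8%), with rescaling and the block (29.7%) and without replicate 3 of both groups (41.9%). When each library was left out it was 0 to 1, against 1.76% to 39.5% of all genes. Without replicate 3 of both groups the median log2 fold change of the members moved to −0.90, the ratio of mean sums to 0.559 for all gamma crystallins and to 0.548 for crygm2d. That choice removes the highest library labelled −/− and the lowest labelled +/+ of 30 of the 31 tested members, so lower values follow from it. Leaving out each library gave ratios of 0.615 to 0.826 and 0.601 to 0.798. Sums of the crygmx group and of the crygn pair had ratios on either side of 1 across these fits, 0.814 to 1.21 and 0.818 to 1.22.

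The direction of 5 members that were not called turned under some alternatives. For crygm2d2 the log2 fold change of 0.04 became −0.065 with FPKM, −0.19 with rescaling, with or without the block, and −0.27 without replicate 3 of both groups, and ranged from −0.15 to 0.15 with each library left out. For crygm2d1 the value of 0.01 became −0.093, −0.22 and −0.39 under these, with a range of −0.25 to 0.24. With each library left out, crygn1 ranged from −0.54 to 0.062, crygn2 from −0.32 to 0.30 and crygm5 from −0.37 to 0.093. The cause of these changes was not tested. The difference in share of the 4 crygm2d copies of highest coordinate, an alternative chosen after seeing the data, moved by less than the spread between replicates in every fit without a library. No counting interval was computed for members under 1 TPM.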
